A study of Mus musculus with 9 samples.

Results

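The 33 genes described here make, take up, move, store and export cholesterol in mouse pancreatic cancer cells. They were chosen by symbol from the known pathway, and each symbol matched 1 of the 54838 Ensembl gene identifiers in the deposited table. By role they are 18 biosynthesis enzymes, 5 genes of the sterol-sensing control system, 5 genes of uptake and intracellular transport, and 5 genes of export and storage. The enzymes divide further into 7 that make and join isoprenoid units and 11 that build squalene and turn it into cholesterol. A filter on low counts passed 31 of the 33 members, and Mylip and Abca1 did not pass.

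RNA-seq was collected from 9 libraries of PDA530 Met (the series' design text also spells it PDA50 Met), a line grown from a liver metastasis of pancreatic ductal adenocarcinoma in a male KPC mouse of mixed 129/SvJae and C57Bl/6 background. All cells were untreated and grew in DMEM with foetal bovine serum, so lipoproteins of the serum were present in every group. The knockout group was clone E4, edited in Zdhhc20 with CRISPR/Cas9, the control group was clone C5, which received the same guide RNAs by nucleofection without being edited, and the parental group was the uncloned line. Each group had 3 libraries, and each clone is a single clone, so the libraries of a clone are replicates of it and not of independent clones. ZDHHC20 belongs to the palmitoyltransferases, which couple palmitate to cysteines of proteins.

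Cells build cholesterol from acetyl-CoA through mevalonate, isoprenoid pyrophosphates, squalene and lanosterol. Transcription of most enzymes of this route is driven by the sterol regulatory element-binding proteins (SREBPs), membrane-bound factors encoded by Srebf1 and Srebf2. When membrane sterol is low, the escort protein SCAP carries them to the Golgi for cleavage, and when it is high the INSIG proteins hold SCAP in the endoplasmic reticulum. Oxysterols, which form as cholesterol builds up, activate the liver X receptors encoded by Nr1h2 and Nr1h3, which raise the export genes Abca1 and Abcg1 and the ubiquitin ligase gene Mylip, whose product removes lipoprotein receptors.

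Library totals ranged from 16525869 to 23192701 counts. The targeted gene Zdhhc20 was at 33.9 to 42.5 CPM (counts divided by library size, corrected with TMM factors, and scaled to a fixed total) in the knockout libraries, 85.8 to 123 CPM in the control libraries and 75.3 to 90.7 CPM in the parental libraries. Its log2 fold change was -1.53 against the control clone (SE 0.15, adjusted p 7e-05) and -1.12 relative to the parental line (SE 0.15, adjusted p 0.000585), by edgeR's quasi-likelihood test with Benjamini-Hochberg adjustment over 13153 genes, which gives every adjusted p below. The 9 ductal epithelial markers summed to 4410 to 4550 CPM in the knockout libraries, 7290 to 9750 CPM in the control libraries and 6820 to 8300 CPM in the parental libraries. The keratin genes Krt8 and Krt18 were at 1270 CPM or more in every library, while Epcam was at 0.635 CPM or less. Of the 9, 6 fell and 2 rose relative to the control clone, and 5 fell and 2 rose relative to the parental line, and the part of this shift in the members' levels was not tested. The summed level was at most 4.05 CPM for 8 fibroblast markers, 2.88 CPM for 7 leukocyte markers, 0.525 CPM for 4 endothelial markers and 0.118 CPM for 4 hepatocyte markers, with Col1a2, Dcn, Adgre1, Cd3e and Ahsg at 0 counts throughout. Control replicates 2 and 3 stood apart from each other most among libraries of 1 group, with a mean chi-square per gene of 92.9, against 5.00 to 18.4 within the other groups. Lower counts in a library cannot tell fewer cells of a kind from less RNA per cell.

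Promoters of the members are described first, and the part of their motifs in the levels was not tested. The RefSeq promoter table (build GRCm38.p6) held 26 of the 33 members, each window reaching from 250 bases before the start of transcription to 50 after it. They were searched on both strands for a sterol regulatory element, written TCACNCCAC, and for the CCAAT box, bound by the factor NF-Y that acts beside SREBPs at many of these genes. No position was shared between matches of the 2 motifs. CCAAT was found for 14 of 15 biosynthesis members with a window, 4 of 5 control genes, 2 of 2 uptake genes and 1 of 4 export genes, against 41.1% of 27025 genes with a window. TCACNCCAC was found for Hmgcs1 and no other member, against 1.44% of those genes. Some genes had more than 1 window, and a gene counted if any of its windows matched. Per window, CCAAT was found in 62.9% of 35 windows of members, against 37.4% of 32851 windows of all genes. A match describes letters in the window and is not evidence of binding, and a missing match says only that these letters are not there.

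The 250 bases before the start are printed 5′ to 3′ on the gene's strand, with both motifs in capitals (ATTGG is CCAAT read on the other strand). Hmgcs1 is shown because it holds both motifs, Idi1 and Cyp51 because they were called higher than in the parental cells, and Sc5d because it fell against the control clone. The windows are chr13:119690101-119690350 on the plus strand for Hmgcs1, chr13:8885356-8885605 on the plus strand for Idi1, chr5:4104698-4104947 on the minus strand for Cyp51, and chr9:42264301-42264550 on the minus strand for Sc5d.
Hmgcs1: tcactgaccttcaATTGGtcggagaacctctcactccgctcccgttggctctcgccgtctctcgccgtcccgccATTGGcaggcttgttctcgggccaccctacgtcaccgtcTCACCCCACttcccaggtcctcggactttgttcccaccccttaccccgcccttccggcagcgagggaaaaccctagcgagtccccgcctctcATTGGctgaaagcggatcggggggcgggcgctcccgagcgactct
Idi1: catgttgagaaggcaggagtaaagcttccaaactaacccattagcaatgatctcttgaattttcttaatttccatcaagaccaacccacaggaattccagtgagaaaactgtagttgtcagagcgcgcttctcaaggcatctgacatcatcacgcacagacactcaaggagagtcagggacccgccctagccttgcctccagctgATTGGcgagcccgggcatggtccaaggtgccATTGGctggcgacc
Cyp51: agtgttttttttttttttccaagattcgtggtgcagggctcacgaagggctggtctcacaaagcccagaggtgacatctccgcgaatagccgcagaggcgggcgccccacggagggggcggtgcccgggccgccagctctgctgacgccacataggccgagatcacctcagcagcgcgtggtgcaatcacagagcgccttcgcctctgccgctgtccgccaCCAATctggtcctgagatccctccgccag
Sc5d: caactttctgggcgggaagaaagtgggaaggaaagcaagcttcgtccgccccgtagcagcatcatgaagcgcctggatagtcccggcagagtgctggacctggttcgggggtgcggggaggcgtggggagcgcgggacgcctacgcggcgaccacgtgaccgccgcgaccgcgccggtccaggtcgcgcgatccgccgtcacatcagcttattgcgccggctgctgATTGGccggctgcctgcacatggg
In Hmgcs1 the sterol regulatory element begins 137 bases before the start, between CCAAT matches 176 and 45 bases before it. The matches nearest the start lie 14 bases before it in Idi1, 29 in Cyp51 and 24 in Sc5d.

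The biosynthesis enzymes went up and down together between libraries of 1 clone. In 18 of 18 enzyme genes, control replicate 3 was the highest and control replicate 2 the lowest of the 3 control libraries. Of the 10020 genes that averaged 5 CPM or more, 37.8% had the first order and 37.4% the second. The ratio of control replicate 3 to control replicate 2 ran from 1.42 (Hsd17b7, a ketosteroid reductase of the late pathway) to 3.47 (Pmvk, phosphomevalonate kinase), with a median of 2.04, against 0.972 over those 10020 genes. In 15 of the 18 genes, control replicate 3 was the highest of all 9 libraries, against 20.3% of those 10020 genes. Knockout replicate 2 was the lowest knockout library for 16 of the 18, against 37.2% of those 10020 genes, at a median of 0.782 times the mean of the 2 other knockout libraries. The parental libraries differed little, with a highest-to-lowest ratio from 1.02 to 1.2. The order of the control libraries was not particular to the enzymes. It held too for Srebf1, Srebf2, Scap, Insig1, Insig2, Npc2, Stard4, Nr1h2, Nr1h3 and Soat1. In these, the ratio of control replicate 3 to control replicate 2 ran from 1.08 (Nr1h2) to 3.74 (Insig1). Scarb1, Npc1 and Abcg1 had other orders.

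**Figure D1:**
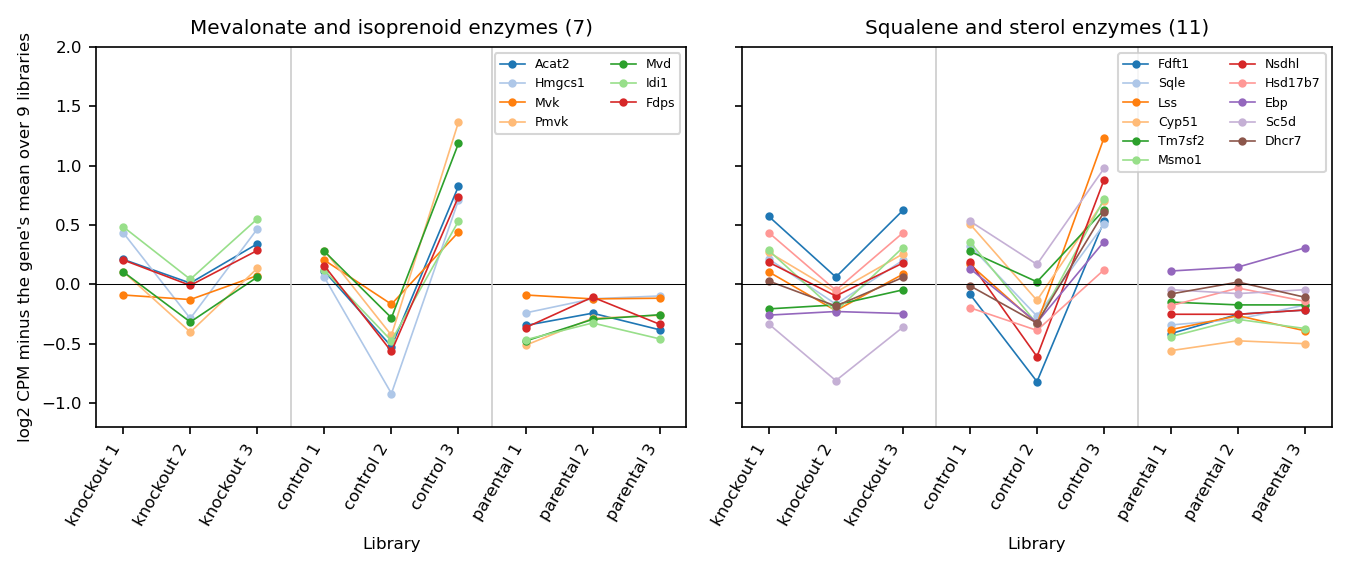
Level of each biosynthesis enzyme in each library, as log2 CPM minus the gene's mean over 9 libraries. Each colour is a gene and lines join libraries of 1 group. In both panels each gene is lowest of the control libraries in replicate 2 and highest in replicate 3, while the parental libraries stay nearly level.

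The within-group SD of log2 CPM for these enzymes had a median of 0.52 for control, 0.205 for knockout and 0.075 for parental libraries. Over those 10020 genes the medians were 0.204, 0.0756 and 0.084. The summed level of the 18 enzymes was 2740, 2070 and 2810 CPM in knockout replicates 1, 2 and 3, and 2700, 1750 and 3760 CPM in control replicates 1, 2 and 3. It was 1800, 1950 and 1890 CPM in the parental libraries. Control replicate 2 thus lay below and control replicate 3 above all others, and the knockout libraries all lay above the parental ones. A list of 12 lipogenic genes (such as Acly, Fasn and Scd1, which make fatty acids and are SREBP targets) was again lowest in control replicate 2, at 3830 CPM, and highest in control replicate 3, at 9150 CPM. A list of 10 proliferation genes (such as Mki67 and Top2a) was at 1950 CPM in control replicate 3 and 3470 to 4150 CPM in the 8 other libraries. The part of growth state in the enzyme levels was not tested.

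**Figure D2:**
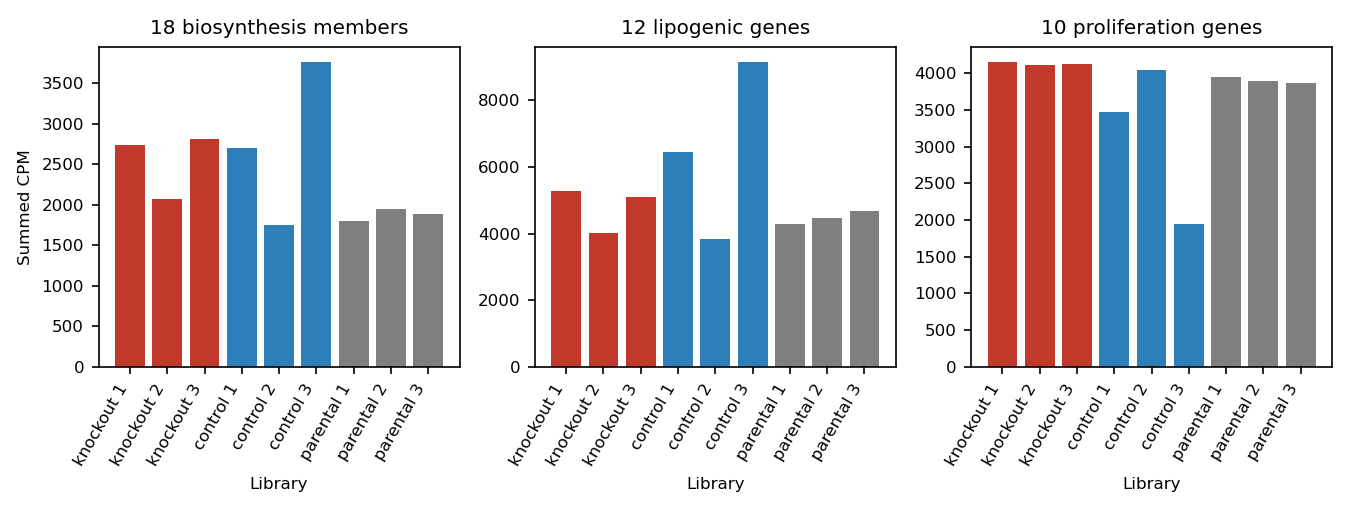
Summed CPM per library of the 18 biosynthesis members, 12 lipogenic genes and 10 proliferation genes. Control replicate 3 has the tallest bars for biosynthesis (3760) and lipogenic genes (9150) and the shortest for proliferation genes (1950).

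Between the knockout and control clones, 2 of the 18 enzymes fell and 0 rose. Here 42.9% of all tested genes were called, 24.2% lower and 18.7% higher, so a smaller share of enzymes was called than of all genes. The median log2 fold change was -0.04 for the isoprenoid enzymes and -0.18 for the squalene and sterol enzymes, against -0.023 over all tested genes. The knockout and control libraries overlapped for 16 of the 18 enzymes and for 22 of the 31 tested members, and did not overlap for 51.6% of all tested genes. Sc5d, the sterol desaturase of the late pathway, stood at 108, 77.6 and 106 CPM in the knockout libraries, 197, 153 and 268 CPM in the control libraries, and 132, 129 and 132 CPM in the parental libraries. Its knockout libraries lay below all 6 others, as those of 34.2% of all tested genes lay outside the 6 others. Sc5d fell against the control clone, with a log2 fold change of -1.08 (SE 0.19, adjusted p 0.00175), and was at -0.42 relative to the parental line (SE 0.19, adjusted p 0.12). Sc5d lies on chromosome 9, where the median log2 fold change over 748 tested genes was -0.53 in each knockout comparison, and the part of this shift was not tested. Tm7sf2, a sterol reductase, fell by 0.47 on the log2 scale against the control clone (SE 0.14, adjusted p 0.0199). Its exons overlap those of Vps51 by 532 bases on the same strand, so the division of reads is uncertain, and the call was lost without knockout replicate 1 or 2 and in a fit of only these groups (adjusted p 0.0834, 0.0734 and 0.0647).

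With only the knockout and control libraries in the fit, 6 members were called, 2 higher and 4 lower, where 34.1% of 12749 genes were called, 15.6% higher and 18.5% lower. The count of calls moved furthest when 1 control library was left out. Without control replicate 2, 16 members were called lower and 2 higher than in the control clone, in a fit that called 53.5% of all tested genes, 28.3% lower and 25.2% higher. Without control replicate 3, 5 were called lower and 6 higher, in a fit that called 24.9% of all tested genes lower and 20.6% higher. The median of the isoprenoid enzymes was then 0.33 and that of the squalene and sterol enzymes 0.05, against -0.31 and -0.45 without control replicate 2. Idi1 (0.52, adjusted p 0.0447), Fdft1 (0.84, adjusted p 0.0129) and Hsd17b7 (0.58, adjusted p 0.0101) were called higher without control replicate 3. Pmvk (-0.95, adjusted p 0.0138), Mvd (-0.83, adjusted p 0.0109) and Lss (-0.79, adjusted p 0.0188) were called lower without control replicate 2. With all libraries none of these 6 passed the threshold, but Hsd17b7 lay near it (0.43, adjusted p 0.0507) and was called in 5 alternatives that kept all 9 libraries (adjusted p 0.0198 to 0.048). PMVK and MVD phosphorylate and decarboxylate mevalonate intermediates, and LSS closes squalene epoxide into lanosterol.

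Against the parental cells, the knockout clone had higher fitted levels for 16 of the 18 enzymes, with medians of 0.40 for the isoprenoid enzymes and 0.34 for the squalene and sterol enzymes, against -0.006 over all tested genes. Of these, Idi1 and Cyp51 rose, 2 of 18, where 31.4% of all tested genes were called, 13.1% higher and 18.3% lower. IDI1 isomerises isopentenyl pyrophosphate. Idi1 stood at 356, 262 and 373 CPM in the knockout libraries, 276, 183 and 368 CPM in the control libraries, and 184, 203 and 185 CPM in the parental libraries. All 3 knockout libraries were above the parental ones, and the control libraries overlapped both groups. The log2 fold change of Idi1 was 0.79 relative to the parental line (SE 0.22, adjusted p 0.0242). CYP51 removes a methyl group from lanosterol. Cyp51 was at 302, 239 and 299 CPM, 356, 228 and 408 CPM, and 170, 180 and 177 CPM in knockout, control and parental libraries, so both clones were above the parental cells in every library. The fitted log2 change was 0.67 for the knockout clone (SE 0.19, adjusted p 0.0221) and 0.91 for the control clone (SE 0.19, adjusted p 0.00852) against the same parental libraries. Knockout and parental libraries did not overlap for 11 of the 18 enzymes and 21 of the 31 tested members, against 61.5% of all tested genes.

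These fits share the estimate of spread with the control clone, whose libraries varied most. With only the knockout and parental libraries in the fit, 21 members were called, 14 higher and 7 lower, among them 13 of 18 enzymes, 11 higher and 2 lower. In that fit, 53.5% of 12777 genes were called, 26.0% higher and 27.6% lower. There the largest rises were Idi1 (0.79, SE 0.113, adjusted p 0.000226), Fdft1 (0.73, SE 0.127, adjusted p 0.000803) and Cyp51 (0.67, SE 0.083, adjusted p 9.13e-05). FDFT1 joins farnesyl units into squalene. Acat2, Fdps, Mvd, Sqle, Lss, Msmo1, Nsdhl and Hsd17b7 were the other 8 called higher, with log2 fold changes from 0.31 to 0.52. Ebp, a sterol isomerase (-0.43, adjusted p 0.000403), and Sc5d (-0.42, adjusted p 0.00722) were called lower, and Hmgcs1, Mvk, Pmvk, Tm7sf2 and Dhcr7 were not called. Hmgcs1, the synthase that makes HMG-CoA, named here for its promoter after its values were seen, stood at 353, 214 and 361 CPM in the knockout libraries and 221, 240 and 244 CPM in the parental libraries, with knockout replicate 2 below all 3 parental libraries. In that fit its log2 fold change was 0.40 (SE 0.16, adjusted p 0.0579). Idi1 and Hmgcs1 lie on chromosome 13, where the median over 542 tested genes was 0.12 in this comparison and 0.33 between knockout and control libraries, and Fdft1 lies on chromosome 14, where the medians were 0.21 and 0.19. The part of these shifts was not tested. With all 9 libraries, the calls of Idi1 and Cyp51 were each lost when any 1 parental library or knockout replicate 1 or 3 was left out (adjusted p 0.0635 to 0.0862).

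**Figure D3:**
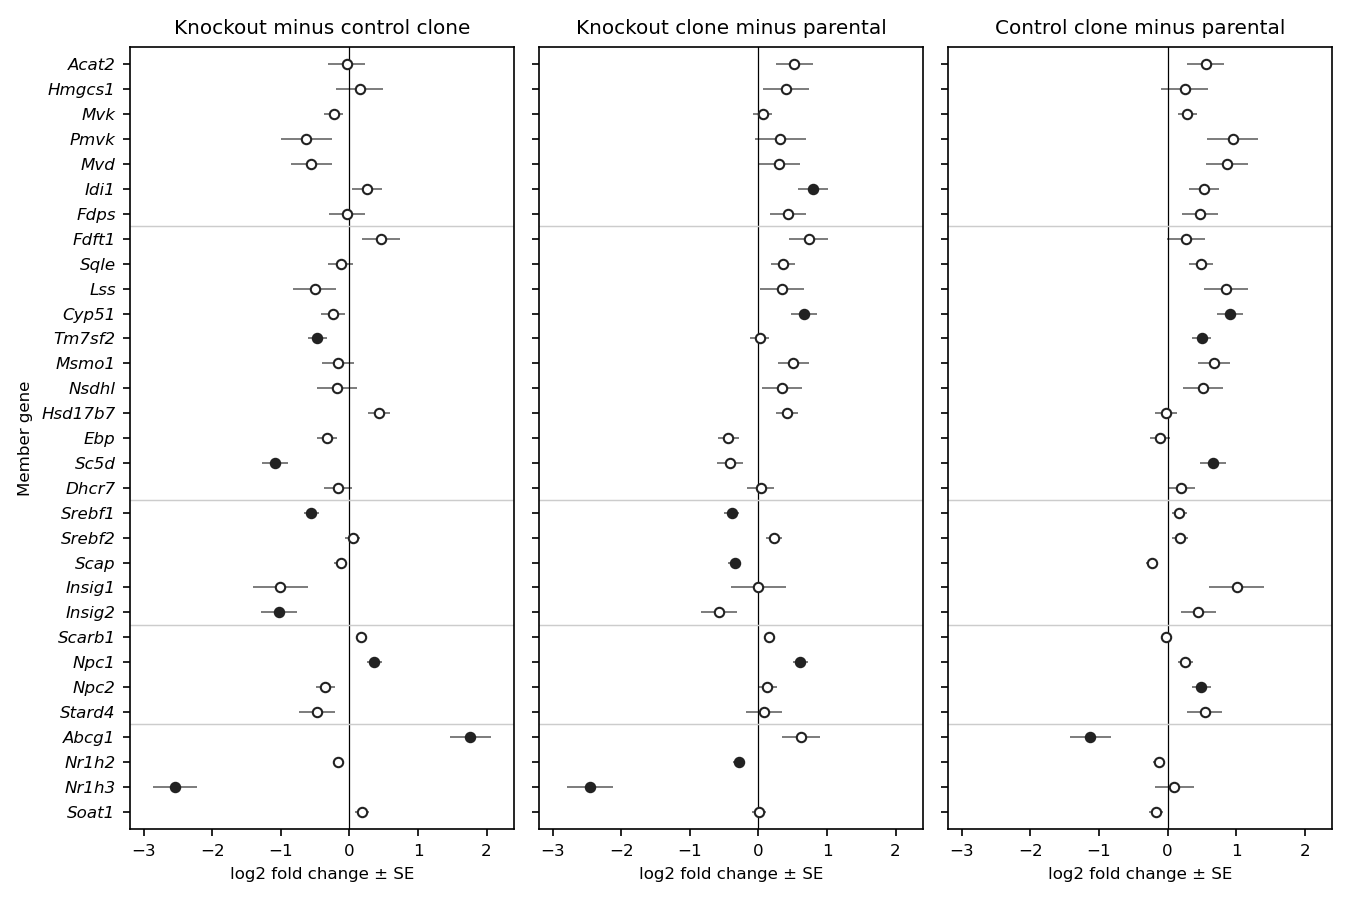
Log2 fold change with its SE for the 31 tested members in 3 comparisons, with grey lines between roles. Filled points were called at an adjusted p under 0.05. Most enzymes lie to the right of 0 for both clones relative to the parental line and near or left of 0 between the clones, and Nr1h3 lies lowest in both knockout comparisons.

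Between the unedited control clone and the parental line, 16 of the 18 enzymes again had higher fitted levels, with medians of 0.53 and 0.50 for the same classes. In fits that left out 1 library, these medians ran from 0.15 to 0.75 and from 0.29 to 0.68. Cyp51, Tm7sf2 (0.50, SE 0.14, adjusted p 0.0304) and Sc5d (0.66, SE 0.19, adjusted p 0.0364) rose, 3 of 18, where 21.4% of all tested genes were called, 10.4% higher and 11.0% lower. The calls of Tm7sf2 and Sc5d were lost in 7 and 8 of 16 alternatives. This comparison and the one of the knockout clone use the same parental libraries, so a shared direction of both clones is not independent. Libraries of the 2 groups did not overlap for 7 of the 31 tested members, against 37.3% of all tested genes. Without control replicate 2, 19 members were called higher than in the parental line, in a fit that called 14.3% of all tested genes higher. In a fit of only these groups 1 member, Cyp51, was called higher and 0 lower, where 11.8% of 12895 genes were called, 5.84% higher and 5.99% lower. Some enzymes have near copies that could share their reads, which was not measured. Acat2 matches its tandem copy Acat3 over 1477 bases at 97.698% identity, and Idi1 matches the pseudogene Gm13502 over 684 bases at 100% identity. These copies held 1.82% and 2.75% as many counts as the member. Acat2 also matches 445 bases of Tcp1 at 98.652% identity, and Tcp1 held 165975 counts over all libraries against 27300 for Acat2, so the counts of Acat2 are uncertain. Dhcr7 and Msmo1 share short stretches with many other genes. Fdft1 overlaps 774 exon bases of Ctsb on the other strand, and the strand setting of the counting is not given in the sources used here.

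Of the control system, Srebf1 fell in the knockout clone relative to each of the other groups, while Srebf2, the main driver of the sterol enzymes, was not called in either comparison. The median log2 fold change of the 5 control genes was -0.56 and -0.35 in the knockout comparisons. Srebf1, whose product mainly drives fatty acid synthesis, stood at 100, 89.4 and 104 CPM in the knockout libraries, 154, 123 and 156 CPM in the control libraries, and 121, 125 and 138 CPM in the parental libraries. The knockout libraries were the 3 lowest. This was a log2 fold change of -0.56 against the control clone (SE 0.11, adjusted p 0.00277) and -0.39 relative to the parental line (SE 0.11, adjusted p 0.0233). The second call was lost without parental replicate 2 or 3 or knockout replicate 1 or 2 (adjusted p 0.0652 to 0.104). Among all tested genes, 13.4% were called lower in both knockout comparisons. Srebf2 was at 411, 355 and 415 CPM, 388, 316 and 437 CPM, and 328, 337 and 341 CPM in knockout, control and parental libraries, so every knockout library was above the parental ones and within the range of the control libraries. The fitted log2 differences were 0.05 versus control (SE 0.11, adjusted p 0.752) and 0.23 versus parental libraries (SE 0.12, adjusted p 0.156), and with only the knockout and parental libraries in the fit it was called higher (0.23, adjusted p 0.0114).

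Insig1 and Insig2 encode the proteins that retain SCAP, and Insig1 is itself an SREBP target. Insig1 showed the widest control spread of the 31 tested members, at 216, 102 and 381 CPM in control replicates 1, 2 and 3, against 134, 78 and 136 CPM in the knockout libraries and 99.9, 127 and 121 CPM in the parental libraries. Knockout and parental libraries overlapped. Its log2 fold change was -1.01 against the control clone (SE 0.40, adjusted p 0.0669) and 0.00 relative to the parental line (SE 0.40, adjusted p 0.997). The first was called without control replicate 2 (-1.36, adjusted p 0.00192) and with no filter on low counts (adjusted p 0.0093), and was at -0.46 without control replicate 3 (adjusted p 0.257). Insig2 stood at 19.4, 17.5 and 17.9 CPM in the knockout libraries, 38.1, 22.4 and 51.4 CPM in the control libraries, and 23.3, 25.9 and 33 CPM in the parental libraries, and all 3 knockout libraries were below the 6 others. It fell against the control clone (log2 fold change -1.03, SE 0.26, adjusted p 0.0103), and its log2 fold change relative to the parental line was -0.58 (SE 0.26, adjusted p 0.116), called lower with only these groups in the fit (adjusted p 0.0027). Scap fell by 0.35 on the log2 scale relative to the parental line (SE 0.089, adjusted p 0.0163) and was at -0.13 against the control clone (SE 0.089, adjusted p 0.274). It also lies on chromosome 9, and its call was lost without parental replicate 3 or knockout replicate 2 or 3 (adjusted p 0.0533 to 0.0808).

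In uptake and transport, Npc1 was the only member called in the knockout comparisons, and it rose in both. NPC1 moves cholesterol out of lysosomes after lipoprotein uptake. Npc1 stood at 58.0, 61.4 and 58.8 CPM in the knockout libraries, 40.0, 48.2 and 51.1 CPM in the control libraries, and 42.7, 38.3 and 35.4 CPM in the parental libraries. The knockout libraries were the 3 highest. Its log2 fold change was 0.36 against the control clone (SE 0.11, adjusted p 0.0234) and 0.61 relative to the parental line (SE 0.11, adjusted p 0.00255), and 8.19% of all tested genes were called higher in both. The first call was lost without control replicate 1 or knockout replicate 2 or 3 (adjusted p 0.0573 to 0.0729), and the second held in each alternative tried. Npc1 shares 511 exon bases with Rmc1 on the other strand. Npc2, the soluble partner of NPC1, was at 98.5, 98.5 and 103 CPM, 130, 97.5 and 156 CPM, and 88.8, 94.5 and 91.0 CPM in knockout, control and parental libraries. It rose in control relative to parental libraries (0.49, SE 0.14, adjusted p 0.0378), a call lost in 10 of 16 alternatives, and on its chromosome, 12, the median over 466 tested genes was 0.29. It was not called in either knockout comparison, with log2 fold changes of -0.35 and 0.13.

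Scarb1, the receptor that takes cholesterol esters from high-density lipoprotein, was at 46.1 to 47.8 CPM in the knockout libraries, 40.0 to 43.6 CPM in the control libraries and 39.5 to 44.5 CPM in the parental libraries. The knockout libraries were the 3 highest, but the fitted differences of 0.17 and 0.15 on the log2 scale were not called (adjusted p 0.0896 and 0.161). Stard4, a soluble sterol carrier, followed the enzymes, at 268, 147 and 341 CPM in control replicates 1, 2 and 3 and 196, 147 and 206 CPM in knockout replicates 1, 2 and 3, with 158 to 184 CPM in the parental libraries. It was not called in any comparison with all libraries. Mylip held 0 counts in all 9 libraries, which allows a level of up to 0.131 to 0.178 CPM per library at 3 counts.

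Export and storage held the member with the greatest change, Nr1h3. It encodes liver X receptor alpha, and it fell in knockout libraries relative to both other groups. Nr1h3 stood at 0.439, 1.06 and 0.642 CPM in the knockout libraries, 4.5, 3.39 and 4.62 CPM in the control libraries, and 2.99, 4.18 and 4.59 CPM in the parental libraries. Its highest knockout library, replicate 2, stayed below the lowest of the 6 others, parental replicate 1. These levels rest on 9, 19 and 11 counts in the knockout libraries, and on 57 to 103 counts in the others. The fitted log2 change was -2.55 against the control clone (SE 0.32, adjusted p 0.000281), a level 5.86-fold lower, and -2.46 relative to the parental line (SE 0.33, adjusted p 0.000569), 5.49-fold lower, and both calls held in every alternative in which it was tested. Control and parental libraries differed by 0.10 (SE 0.28, adjusted p 0.836). Nr1h2, which encodes the other liver X receptor, was at 24.0 to 25.1 CPM in the knockout libraries, 26.0 to 28.0 CPM in the control libraries and 29.2 to 30.4 CPM in the parental libraries. The 3 groups did not overlap, and it fell by 0.29 on the log2 scale relative to the parental line (SE 0.077, adjusted p 0.0177), a call lost in 6 alternatives, 5 of which left out 1 library.

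Abca1, the transporter that loads cholesterol onto lipid-poor apolipoproteins, held 1 count in all, in control replicate 2, and 0 in the 8 other libraries, so its level could not be compared. Abcg1, which passes cholesterol on to high-density lipoprotein, was low and ordered differently from Nr1h3. It stood at 4.05, 3.73 and 2.74 CPM in the knockout libraries, 1.22, 1.19 and 0.682 CPM in the control libraries, and 2.41, 1.71 and 2.71 CPM in the parental libraries. The knockout libraries were the 3 highest and the control libraries the 3 lowest. Abcg1 rose in the knockout relative to the control libraries (1.76, SE 0.30, adjusted p 0.00134) and fell in the control relative to the parental libraries (-1.13, SE 0.30, adjusted p 0.0267). The log2 difference of knockout and parental libraries was 0.62 (SE 0.28, adjusted p 0.117), and it was called with only these groups in the fit (0.63, adjusted p 0.0435). The call between control and parental libraries was lost without parental replicate 1 or 3 and in a fit of only these groups (adjusted p 0.0656 to 0.085). Soat1, which esterifies cholesterol for storage, was at 200 to 207 CPM in the knockout libraries, 156 to 208 CPM in the control libraries and 197 to 210 CPM in the parental libraries, and was not called in any comparison with all libraries.

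**Figure D4:**
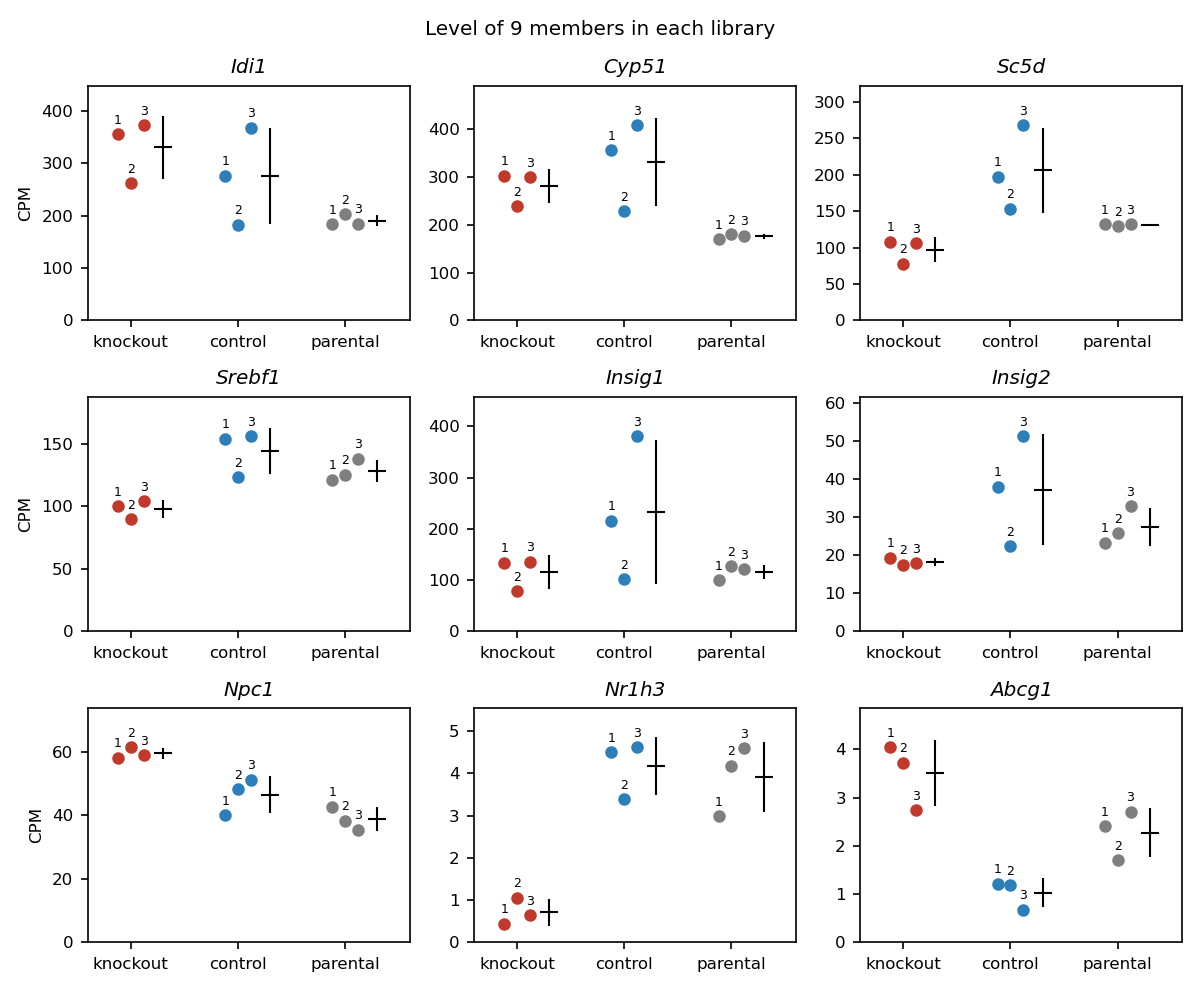
CPM of 9 members in each library, with the replicate number above each point and the mean with its SD (n = 3) beside each group. The knockout points lie apart from the 6 others for Sc5d, Srebf1, Insig2, Npc1, Nr1h3 and Abcg1, and control replicates 2 and 3 are the lowest and highest control libraries for Idi1 and Insig1.

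With all 9 libraries, 7 of 31 members were called in each knockout comparison and 5 of 31 between control and parental libraries. These shares of 22.6%, 22.6% and 16.1% were each below the share of all genes, an order that did not hold in every fit. Without control replicate 2, 18, 17 and 20 members were called, in fits that called 53.5%, 42.2% and 29.2% of all tested genes. With only the knockout and parental libraries, 11 of 18 enzymes were called higher and 2 lower, beside 53.5% of all tested genes. In the fit of all libraries, both knockout comparisons, which share the knockout libraries, called Srebf1 and Nr1h3 lower and Npc1 higher. There 13.4% of all tested genes were called lower and 8.19% higher in both. Of the 31 tested members, 20 were called in neither, or 64.5%, against 48.0% of all tested genes. Calls that held in each alternative in which the gene was tested numbered 5 of 7 relative to the control clone and 2 of 7, Npc1 and Nr1h3, relative to the parental line, and 1 of 5, Cyp51, for the control clone relative to the parental line. The knockout libraries lay outside the range of the 6 others for 8 of the 31 tested members, or 25.8%, against 34.2% of all tested genes. They were Scarb1, Nr1h2 and 6 in the plot of single members.

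Other genes of sterol handling were taken from lists chosen with earlier results of these data known. Of 19 tested genes of lipoprotein uptake and sterol transport, 4 rose and 9 fell in each knockout comparison, with medians of -0.21 and -0.15. That is 68.4% called in each, against 42.9% and 31.4% of all tested genes, of which 24.2% and 18.3% were called lower. The genes called higher in both, named after their values were seen, were Lrp8, a lipoprotein receptor (0.35, SE 0.10, adjusted p 0.0222, and 0.63, SE 0.10, adjusted p 0.00194), and Stard5, a sterol carrier (0.81, SE 0.20, adjusted p 0.011, and 0.76, SE 0.21, adjusted p 0.0203). Lrp1, an endocytic receptor of lipoprotein remnants, stood at 18.7, 18.4 and 16.9 CPM in the knockout libraries, 60.5, 25.3 and 110.0 CPM in the control libraries, and 51.7, 55.0 and 69.0 CPM in the parental libraries. It fell in both comparisons (-1.86, SE 0.42, adjusted p 0.0059, and -1.70, SE 0.42, adjusted p 0.013). Without knockout replicate 3 the latter was no longer called (adjusted p 0.0507), and the former was at -1.26 without control replicate 3 and -2.24 without control replicate 2. Lrpap1, the chaperone of such receptors, was at 8.82 to 10.5 CPM, 25.5 to 32.5 CPM and 21.7 to 26.8 CPM in knockout, control and parental libraries, and fell in both (-1.59, SE 0.14, adjusted p 3.6e-05, and -1.25, SE 0.14, adjusted p 0.000211). Vldlr, a receptor of triglyceride-rich lipoproteins, was at 0.876 to 1.5 CPM in the knockout libraries, 6.33, 0.952 and 13 CPM in the control libraries and 6.36 to 10.1 CPM in the parental libraries. Control replicate 2 thus lay among the knockout libraries for Vldlr. Its log2 fold changes of -2.49 and -2.68 (adjusted p 0.0199 and 0.02) were each no longer called without any 1 knockout library, at -2.87 to -2.31 (adjusted p 0.0504 to 0.0747). The first was at -1.64 without control replicate 3 (adjusted p 0.0578) and the second at -2.45 without parental replicate 3 (adjusted p 0.0674). Lipa, the lysosomal lipase that frees cholesterol from lipoprotein esters, was at 89.6 to 94.1 CPM in the knockout libraries, 248, 98.8 and 250 CPM in the control libraries and 225 to 327 CPM in the parental libraries. It fell in both (-1.12, SE 0.30, adjusted p 0.0142, and -1.54, SE 0.30, adjusted p 0.0047), and the first call was lost without control replicate 1 or knockout replicate 1 (adjusted p 0.0563 and 0.052).

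Of 10 tested genes of SREBP cleavage and INSIG turnover, 2 rose and 3 fell against the control clone and 1 rose and 3 fell relative to the parental line. Paqr3, which tethers SCAP to the Golgi, was at 5.51 to 6.84 CPM in the knockout libraries, 2.02 to 2.62 CPM in the control libraries and 2.77 to 2.94 CPM in the parental libraries, and rose in both (1.40, SE 0.17, adjusted p 0.000229, and 1.1, SE 0.17, adjusted p 0.00119). Rnf145, a sterol-responsive ubiquitin ligase, fell in both, by 0.37 and 0.37 on the log2 scale. Erlin2 fell in both too (-0.34, adjusted p 0.0147, and -0.31, adjusted p 0.0303), calls lost in 4 and 7 alternatives. Of 11 isoprenoid branch genes, 3 rose and 2 fell, and 2 rose and 1 fell, in the same order of comparisons. Ggps1, which makes geranylgeranyl pyrophosphate for protein prenylation, rose in both (0.70, SE 0.082, adjusted p 0.000181, and 0.45, SE 0.081, adjusted p 0.00285), at 50.4 to 57.0 CPM against 31.6 to 41.4 CPM in the 6 other libraries, and it lies on chromosome 13, with the medians of 0.33 and 0.12 given above. Icmt rose in both (0.38, adjusted p 0.0345, and 0.47, adjusted p 0.0199), calls lost in 5 and 2 alternatives. Coq2 fell in both (-0.55, adjusted p 0.00362, and -0.56, adjusted p 0.0048). Among 11 tested lipogenic genes, 2 rose and 3 fell against the control clone, and 2 rose and 0 fell relative to the parental line. Acly, which makes the acetyl-CoA that feeds both fatty acid and sterol synthesis, rose in both (0.46, SE 0.12, adjusted p 0.0109, and 0.59, SE 0.12, adjusted p 0.00455). Among 5 tested liver X receptor partners and oxysterol genes, 1 rose and 1 fell against the control clone, and 0 were called relative to the parental line, none of them in both. The shares called in these 4 lists, in the order given, were 50%, 45.5%, 45.5% and 40% relative to the control clone, against 42.9% of all tested genes, and 40%, 27.3%, 18.2% and 0% relative to the parental line, against 31.4%.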

How the data were processed

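The deposited values are estimated counts, which the authors made with RSEM as 1 column per library, and all of them were whole. STAR 2.5.2, RSEM 1.3.0, DESeq2 1.10.1 and GRCm38 are named per the submitters' processing notes, while the annotation release and strand setting are not given in the sources used here. Such counts split reads between near copies by estimate. Symbols, positions and exon lengths came from GENCODE M21 (GRCm38).

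Tests used edgeR 4.0.16 (quasi-likelihood) in R 4.3.3 after filterByExpr (minimum count 10, minimum total 15) and TMM scaling, with all 9 libraries in 1 fit and the group as the only term. The filter left 13153 genes, which held at least 99.88% of each library's counts. A call is a Benjamini-Hochberg adjusted p under 0.05 over all tested genes. SE is the absolute unshrunken log2 change over the square root of F. The procedure was checked on artificial counts. Floors of 3 counts cover counting error only. Near copies were found with blastn at 95% identity or more over at least 200 bases.

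Members and lists were chosen with earlier results of these data known. Values per library are given for members called alike in both knockout comparisons, for Srebf, Insig, Abca1 and Abcg1 genes, and for the 2 largest called changes of each class. Up to 4 genes per other list are named. Alternatives were other scalings, filters, DESeq2 1.42.0, a replicate block, only the groups compared, and each library left out.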

Additional observations from a re-analysis of the deposited data

How the results depend on the processing

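Counts of called members depended most on which control libraries entered. Leaving out 1 library at a time gave 6 to 18 called members for knockout against control (1 to 6 higher, 4 to 16 lower), 2 to 17 for knockout against parental (1 to 10 higher, 1 to 7 lower) and 1 to 20 for control against parental (1 to 19 higher, 0 to 2 lower). The shares of all tested genes called in the same fits were 32.1% to 53.5%, 18.7% to 42.7% and 11.0% to 30.8%. The highest totals, 18, 17 and 20, came without control replicate 2. For knockout against parental, 14 were called without control replicate 3 and 2 without parental replicate 3. Median log2 fold changes then ranged from -0.31 to 0.33, 0.27 to 0.51 and 0.15 to 0.75 for isoprenoid enzymes, in that order of comparisons, and from -0.45 to 0.05, 0.29 to 0.44 and 0.29 to 0.68 for squalene and sterol enzymes, and from -0.66 to -0.46, -0.39 to -0.28 and 0.11 to 0.30 for the SREBP control genes. The ranges were -0.17 to -0.02, 0.12 to 0.19 and 0.22 to 0.43 for uptake and transport, and -0.05 to 0.08, -0.16 to -0.12 and -0.22 to -0.09 for export and storage.

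With only the groups compared in the fit, 21 members were called for knockout against parental (14 higher, 7 lower) and 1 for control against parental (1 higher, 0 lower), beside 53.5% and 11.8% of all tested genes. With no filter, 6 were called higher for knockout against parental, and 12 for control against parental, 11 of them higher. In that fit 6.36% and 5.55% of genes were called higher, over 25255 genes in place of the 13153 that pass the filter. Without the filter, the export and storage medians were -0.15 and 0.00 in the knockout comparisons. Keeping genes averaging at least 5 CPM left 1 called higher for knockout against control and 0 lower for control against parental, beside 21.3% and 11.4% of all tested genes, and low members such as Abcg1 were no longer tested. DESeq2 called 10 for control against parental, 9 higher, beside 25.5% and 12.2% of all tested genes. The causes of these shifts were not tested.

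Deviations of same-numbered libraries correlated from -0.223 to 0.344 over 9 pairs of libraries. Those of different-numbered libraries correlated from -0.459 to 0.47 over 18 pairs, so the numbers showed no clear pairing. With 3 libraries per group, these correlations cannot tell whether same-numbered libraries were handled together. With the replicate number as a block, 8, 10 and 6 members were called, beside 42.0%, 30.0% and 18.9% of all tested genes. The members it added were Hsd17b7 in the first comparison, Fdft1, Ebp and Sc5d in the second and Sqle in the third. Levels near the floor limit what can be said of Nr1h3 in the knockout clone, Abcg1, Abca1 and Mylip, and single clones limit every comparison.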
